A study of Mus musculus with 12 samples.

Results

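The genes described here make and process ribosomal RNA in the nucleolus and assemble the first ribosomal particles there. They are 44 named genes of RNA polymerase I transcription, rRNA modification and ribosome assembly, and a gene was kept if its normalized read count was at least 10 in at least 3 of 12 libraries. All 44 passed, of 23479 genes in the table, of which 13111 passed the same minimum and were tested. 43 of them are protein-coding and 1 is Rn45s, the row named for the rRNA precursor. RNA came from cultured cells of a single B cell lymphoma of a C57BL/6 mouse carrying the Eµ-Myc and Eµ-rtTA transgenes, so every group shares a Myc transgene active in B cells, and all were grown with interleukin-7 and selected with puromycin. Vector cells carried a retrovirus with puromycin resistance alone. TFEB cells carried the same kind of virus with TFEB, in which Ser-211 is replaced by alanine, fused to ERT2, the ligand-binding part of the human estrogen receptor in a mutated form. Each line received vehicle or 4-hydroxytamoxifen (4-OHT, the ligand of ERT2) for 4 days, at 250 nM in the labels' protocol and at that figure in ng/mL in the design text, with 3 libraries in each of 4 groups. The labels do not say whether the 3 were separate cultures, so the p-values speak for the spread among these 12 samples alone, which may be technical.

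As background, RNA polymerase I copies the rDNA repeats into a long precursor in the nucleolus. Small nucleolar RNA-protein particles guide its methylation and pseudouridylation, and separate sets of assembly factors cut it and build it into the small and the large subunit. MYC is a known activator of genes at every one of these steps. TFEB is known as an activator of lysosome and autophagy genes, and both proteins belong to the family of basic helix-loop-helix leucine zipper factors, which bind the E-box CACGTG. The comparisons ask how these genes stand when the TFEB fusion is given its ligand in cells in which Myc is already driven by a transgene.

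Most of these genes with a promoter entry did not hold the E-box, although the share that did was above that of the tested genes. Among the members, 37 had a promoter entry in RefSeq (250 bases before to 50 after the gene's start, GRCm38.p6, the assembly called mm10), and 8 of these genes (21.6%) held CACGTG, which reads the same on both strands. The share was 8.09% of all 27025 genes with an entry, 11.5% of the tested genes with an entry and 18% of 122 other genes of the pathway. The longer TCACGTG, searched on both strands and always overlapping a CACGTG, was in 4 members (10.8%), against 4.29% of all genes, 6.77% of tested genes and 5.74% of the other pathway genes. Rrn3, Imp4 and Nop2 were the members whose E-box lay before the gene's start, and their 250 upstream bases are shown because they hold the motif, in capitals; Rrn3 holds it at 2 positions.
Rrn3, chr16:13780449-13780698, plus strand: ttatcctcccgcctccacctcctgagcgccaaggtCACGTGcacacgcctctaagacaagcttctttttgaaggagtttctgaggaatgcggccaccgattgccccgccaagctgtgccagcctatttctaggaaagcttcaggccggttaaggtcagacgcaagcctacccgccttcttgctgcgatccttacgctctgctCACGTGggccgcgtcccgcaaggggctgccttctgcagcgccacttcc
Imp4, chr1:34439579-34439828, plus strand: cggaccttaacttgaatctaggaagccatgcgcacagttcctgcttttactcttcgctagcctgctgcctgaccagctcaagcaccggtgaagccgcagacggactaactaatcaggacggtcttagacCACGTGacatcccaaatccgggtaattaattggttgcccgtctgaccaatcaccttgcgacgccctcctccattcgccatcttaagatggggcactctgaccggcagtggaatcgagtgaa
Nop2, chr6:125131633-125131882, plus strand: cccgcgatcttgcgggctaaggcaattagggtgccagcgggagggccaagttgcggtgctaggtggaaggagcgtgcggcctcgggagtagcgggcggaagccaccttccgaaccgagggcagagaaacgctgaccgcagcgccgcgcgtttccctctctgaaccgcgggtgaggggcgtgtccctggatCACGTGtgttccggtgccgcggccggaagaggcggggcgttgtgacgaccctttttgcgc
The motif began 215 and 48 bases before the start of Rrn3, 121 before that of Imp4 and 60 before that of Nop2. In Pes1, Wdr43, Tsr1, Utp20 and Mybbp1a it lay within the 50 bases after the start. With 4-OHT in TFEB cells, Rrn3 (log2 change 0.25) and Imp4 (0.44) passed an adjusted p of 0.05 in limma. The 6 remaining members with the motif did not: Utp20 had 0.07, Tsr1 -0.01, Nop2 -0.10, Pes1 -0.11, Wdr43 -0.15 and Mybbp1a -0.17. A match is a description of these letters, and binding was not measured.

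Libraries held 11849029 to 22109283 reads, and the thinnest value of a member rested on 200 reads (Polr1e in TFEB 4-OHT library 2, a counting error of 7.1%). Tfeb was at 243 ± 17.7 (SD, n = 3) and 221 ± 23.4 normalized counts in vector cells in vehicle and 4-OHT, and at 1676 ± 249 and 665 ± 72.6 in TFEB cells. Myc was at 32320 ± 1290 and 31050 ± 1270 in vector cells, and at 30650 ± 1250 and 26350 ± 894 in TFEB cells; its log2 change with 4-OHT in TFEB cells was -0.22 (adjusted p = 0.052, limma). The B cell marker Cd79a was at 6830 or more in every library. Of 9 such markers, 8 passed the minimum and Dntt reached 17.8 at most. Their summed level was 46100 to 53900 in the 9 other libraries and 28400 to 30200 in TFEB cells in 4-OHT, and its part in the results on members was not tested. The T cell markers Cd3d, Cd3e and Cd3g, which define that lineage, stayed at or below 24.5. The 10 T and NK cell markers found summed to 422 to 772 over all libraries, and most of that sum was Lck, at 377 to 730. The macrophage and neutrophil markers summed to 9.3 to 141 in the other groups and to 60.3 to 204 in TFEB cells in 4-OHT. The erythroid and platelet markers summed to 77.4 at most, with Hba-a1, Hbb-bs and Pf4 at 0 throughout. The stroma and endothelial markers summed to 700 to 1010, most of it Pecam1, at 648 to 908. In bulk RNA, fewer cells of a type and less RNA per cell cannot be told apart.

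**Figure D1:**
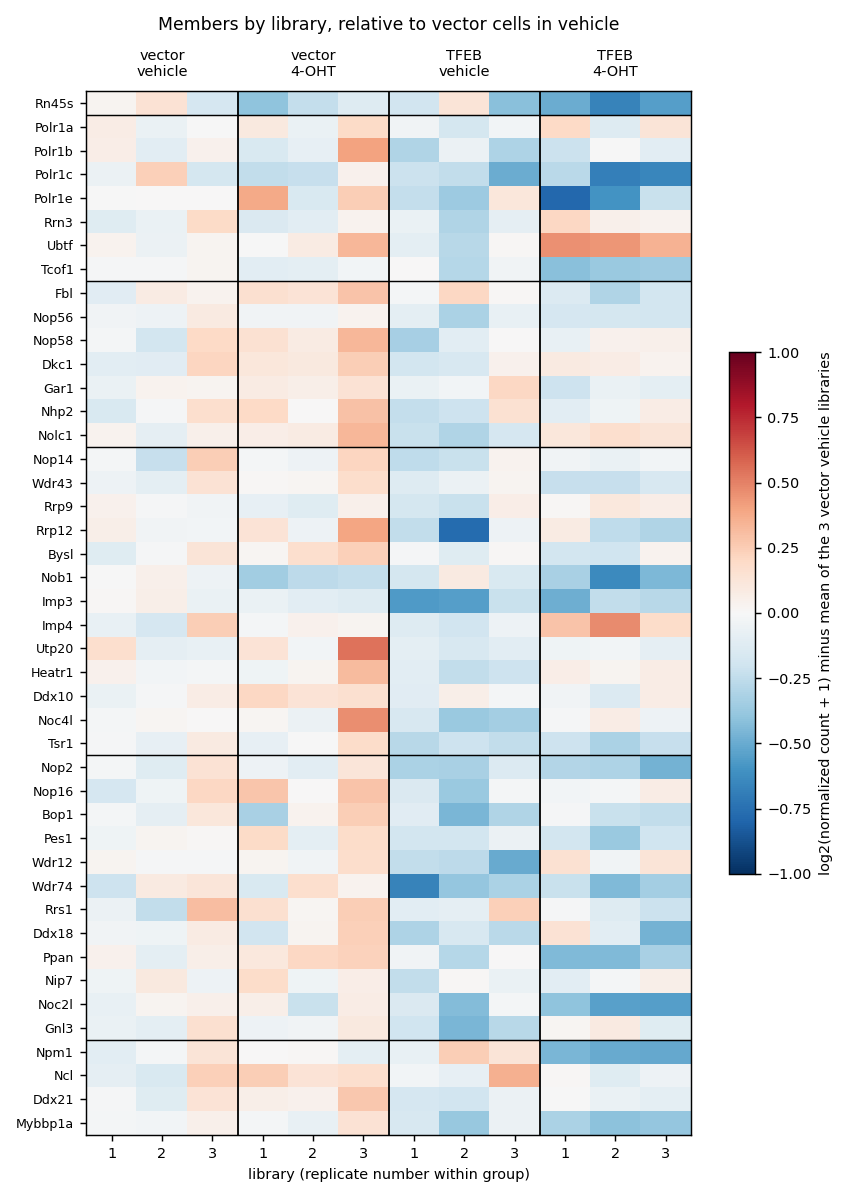
Heat map of the 44 members (rows, grouped by role with black lines between roles) in the 12 libraries (columns, 3 per group). Colour gives log2(normalized count + 1) minus the mean of the 3 vector vehicle libraries, on a scale from -1 to 1; Npm1 and Tcof1 are blue and Ubtf is red in all 3 libraries of TFEB cells in 4-OHT, and most rows of TFEB cells in vehicle are pale blue.

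With 4-OHT in TFEB cells the members moved in both directions, and none reached a 2-fold change, beside 18.7% of all tested genes and 7.3% of those at least as abundant as the lowest protein-coding member. 7 members rose (Ubtf, Imp4, Wdr12, Nolc1, Gnl3, Rrn3 and Heatr1) and 6 fell (Npm1, Nob1, Ppan, Noc2l, Fbl and Tcof1), by 1.19-fold to 1.51-fold. The rises and falls were spread over the roles: 2 higher and 1 lower of 7 in RNA polymerase I transcription, 1 and 1 of 7 in small nucleolar particles, 2 and 1 of 13 in small subunit assembly, 2 and 2 of 12 in large subunit assembly, and 0 and 1 of 4 abundant nucleolar factors. The 13 called are 29.5% of the members, beside 27.5% of all tested genes (13.7% higher and 13.9% lower), so the share is near the background. A gene was called at an adjusted p under 0.05 in limma, with Benjamini-Hochberg adjustment over the 13111 tested genes. edgeR on the recovered whole reads called 5 higher and 7 lower. Upper-quartile scaling and TMM scaling without Rn45s each called 5 higher and 6 lower, with Rrn3 and Heatr1 lost. Over all tested genes edgeR called 1478 higher and 1922 lower, upper-quartile scaling 1614 and 1976, and TMM scaling without Rn45s 1657 and 1921. The main limma fit called 1792 and 1819.

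The range of the members' changes was narrow. The median log2 change was 0.07 over the members and 0.04 over all tested genes, and the median size of the change, regardless of sign, was 0.16 and 0.36, with 0.25 over the tested genes at least as abundant as the lowest protein-coding member. For all 44 members the 95% interval of the fold change lay within 2-fold in either direction, as it did for 55.2% of all tested genes. These genes are abundant, and the set to compare with matters: of the 6506 tested genes at least as abundant as the lowest protein-coding member (a mean of 365), 87.5% had such an interval, and 42.7% of them were called. That set was chosen after the data were seen, and the members' 29.5% is below its share. The 3 libraries per group did not overlap for 16 members (9 higher, 7 lower; 36.4%), beside 38% of all tested genes (19.6% higher, 18.4% lower).

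**Figure D2:**
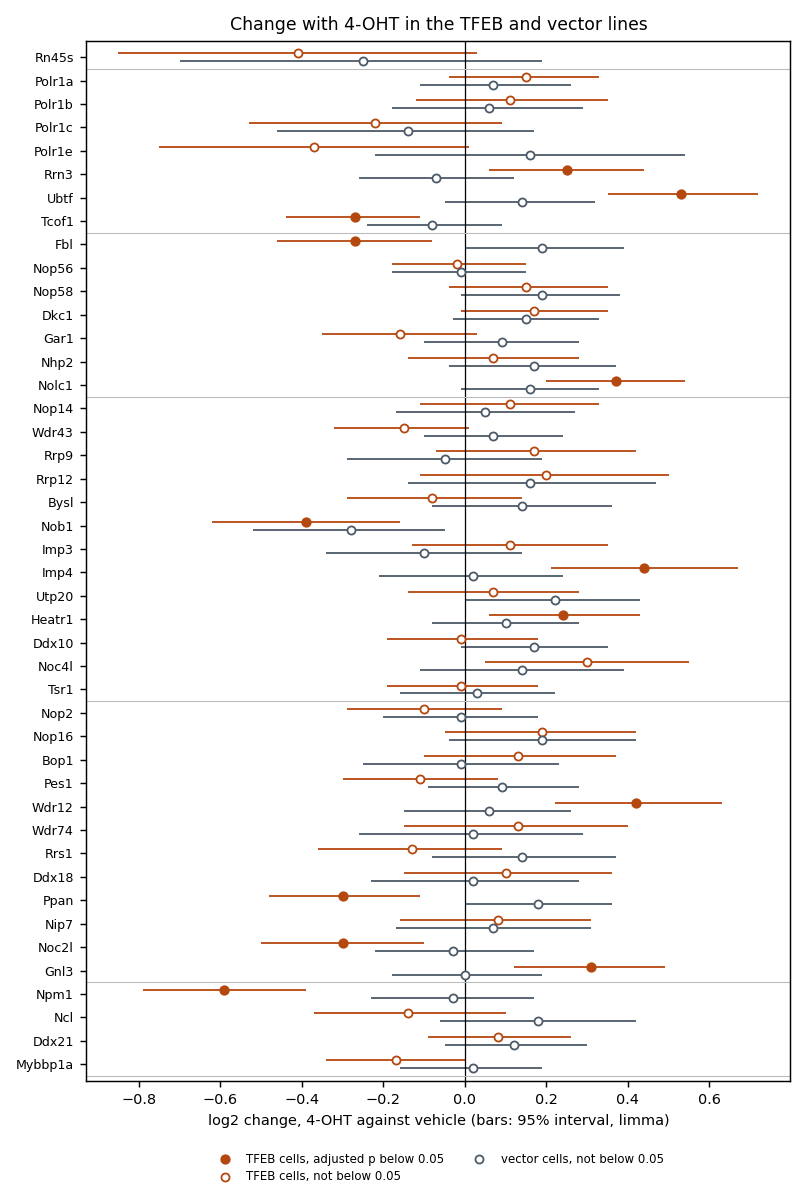
Log2 change with 4-OHT (x axis, limma) of each member in TFEB cells (orange) and vector cells (grey), with 95% intervals as bars; filled points passed an adjusted p of 0.05. The filled points lie on both sides of 0, from -0.59 for Npm1 to 0.53 for Ubtf, and no vector point is filled.

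RNA polymerase I transcription showed the largest rise of a member. Ubtf, the HMG-box factor that coats active rDNA (chr11:102304560-102323649, minus strand), was at 3093, 2737 and 3337 normalized counts in the 3 TFEB vehicle libraries and at 4538, 4493 and 4214 with 4-OHT. In vector cells it was at 3390, 3185 and 3370 in vehicle and at 3313, 3500 and 4171 in 4-OHT. The TFEB 4-OHT libraries lay above all 9 others, although vector 4-OHT library 3 came close. The rise was 1.45-fold (log2 0.53 ± 0.09 SE, adjusted p = 2.31e-05, limma), and it passed in all 24 alternative fits.

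Rrn3, the initiation factor that links polymerase I to the rDNA promoter, went from 2528, 2148 and 2480 in TFEB vehicle to 3053, 2738 and 2717. These groups did not overlap, but vector vehicle library 3, at 3019, was as high, beside 2428 and 2528 in the other two; vector cells in 4-OHT had 2397, 2465 and 2713. The log2 change of 0.25 ± 0.09 (SE) was at the threshold (adjusted p = 0.0466). It passed in 10 of 24 alternative fits. It was lost without vector vehicle library 2 (0.0524), vector 4-OHT library 1 (0.0504) or 2 (0.0513) or TFEB vehicle library 2 (0.22). The same held without TFEB 4-OHT library 1 (0.207), 2 (0.0626) or 3 (0.0635). It was also lost in edgeR (0.127), with upper-quartile scaling (0.0892), TMM scaling without Rn45s (0.0761) or array weights (0.0963). No filter on low values (0.0784) and no variance trend (0.142) lost it too. Tcof1, the treacle protein that binds polymerase I and Ubtf, moved the other way, from 6448, 5276 and 6284 in TFEB vehicle to 4829, 4976 and 5041. Vector cells had 6379, 6370 and 6565 in vehicle and 5973, 6003 and 6306 in 4-OHT, so the TFEB 4-OHT group was below all other libraries. Tcof1 fell by 0.27 on the log2 scale (SE 0.08, adjusted p = 0.00996), and without TFEB vehicle library 1 the adjusted p was 0.0676. Of the polymerase subunits, Polr1a (log2 change 0.15), Polr1b (0.11), Polr1c (-0.22) and Polr1e (-0.37, adjusted p = 0.152) did not pass.

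Rn45s is the row named for the product of this step. The sources used here do not say whether reads of mature rRNA, which is cut from that precursor, also fall on it. It took 6.49, 6.93 and 5.51% of all reads in vector vehicle, 4.8, 5.43 and 5.82% in vector 4-OHT, 5.58, 6.66 and 4.76% in TFEB vehicle and 4.53, 4.13 and 4.44% in TFEB 4-OHT. The TFEB 4-OHT libraries were the 3 lowest of the 12. Within the TFEB line the share was 1.3 points lower with 4-OHT by the means (4.37 ± 0.21 against 5.67 ± 0.95%, SD, n = 3; exact two-sided permutation p = 0.1, the smallest that 3 against 3 allows). In vector cells the groups overlapped, at 5.35 ± 0.51 against 6.31 ± 0.73% (SD, n = 3; exact permutation p = 0.2). On the normalized scale the log2 change in TFEB cells was -0.41 ± 0.22 (SE), and whether it was called rested on the tool: adjusted p = 0.17 in limma, 0.000527 in edgeR and 0.0132 in DESeq2. The 4-OHT effect on Rn45s did not differ detectably between the lines (log2 difference -0.16, 95% interval -0.78 to 0.47). The kit was used on total RNA and the sources used here do not say how rRNA reads were removed or counted, so the share describes these libraries and is no rate of transcription.

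Among the small nucleolar particle proteins, 1 member rose and 1 fell. Nolc1, a chaperone of these particles that shuttles between nucleolus and cytoplasm (chr19:46075847-46085543, plus strand), went from 6636, 6295 and 6908 in TFEB vehicle to 8392, 8709 and 8492 with 4-OHT. In vector cells it was at 7965, 7296 and 8036 in vehicle and at 8106, 8229 and 9784 in 4-OHT. The groups were apart within both lines, and TFEB cells in vehicle were below the other 3 groups. The rise in TFEB cells was 1.29-fold (log2 0.37 ± 0.08 SE, adjusted p = 0.000753) and passed in all 24 alternatives.

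Fbl, fibrillarin, the ribose methyltransferase of box C/D particles (chr7:28168893-28179269, plus strand), was at 1841, 2148 and 1879 in TFEB vehicle and at 1698, 1515 and 1641 with 4-OHT. Vector cells had 1726, 1970 and 1905 in vehicle and 2088, 2045 and 2275 in 4-OHT. Within each line the 2 groups were apart, in opposite directions. Fbl fell by 0.27 on the log2 scale in TFEB cells (SE 0.09, adjusted p = 0.0281). Fbl lost this call without a variance trend (0.0646), or without TFEB vehicle library 2 (0.146) or TFEB 4-OHT library 2 (0.127) or 3 (0.0609). Its partners in the same particles did not pass, with log2 changes of -0.02 for Nop56 and 0.15 for Nop58. Of the box H/ACA proteins, which carry out pseudouridylation, Dkc1 had 0.17, Nhp2 0.07 and Gar1 -0.16, none past the threshold.

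In small subunit assembly Imp4 and Heatr1 rose and Nob1 fell. Imp4, which acts with the U3 small nucleolar RNA, went from 1083, 1037 and 1145 in TFEB vehicle to 1444, 1648 and 1349. Vector cells had 1125, 1054 and 1411 in vehicle and 1173, 1222 and 1210 in 4-OHT. All 3 TFEB 4-OHT libraries were above every other library except vector vehicle library 3, which lay within their range. The rise was 1.36-fold (log2 0.44 ± 0.11 SE, adjusted p = 0.0026) and passed in all 24 alternatives.

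Heatr1, a large scaffold of the small subunit processome, went from 3025, 2749 and 2832 to 3424, 3324 and 3444 in TFEB cells, with 3369, 3207 and 3216 in vector vehicle and 3162, 3333 and 4074 in vector 4-OHT. With 4-OHT the TFEB libraries were inside the range of vector cells, and in vehicle they were below it. The log2 change of 0.24 ± 0.09 (SE, adjusted p = 0.0366) was lost without TFEB vehicle library 2 (0.107) or 3 (0.0733). The same held without TFEB 4-OHT library 1 (0.094), 2 (0.0597) or 3 (0.106), and in edgeR (0.122). Upper-quartile scaling (0.0732), TMM scaling without Rn45s (0.0649), no filter on low values (0.067) and no variance trend (0.108) lost it too. Nob1, the nuclease that makes the last cut of the small subunit rRNA, went from 969, 1163 and 984 in TFEB vehicle to 876, 702 and 803. Vector cells moved the same way, from 1092, 1136 and 1057 to 858, 914 and 928, without overlap. Nob1 fell by 0.39 on the log2 scale in TFEB cells (SE 0.11, adjusted p = 0.00922), and without TFEB vehicle library 2 (0.064) or TFEB 4-OHT library 2 (0.0766) the call was lost. In vector cells its log2 change was -0.28 (unadjusted p = 0.0182, adjusted p = 0.664). Noc4l had a log2 change of 0.30 in TFEB cells (adjusted p = 0.0678), and the 9 remaining members of the role lay between -0.15 for Wdr43 and 0.20 for Rrp12.

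Large subunit assembly had 2 rises and 2 falls. Wdr12, which forms a complex with Pes1 and Bop1 (chr1:60071361-60098500, minus strand), was at 1270, 1258 and 1063 in TFEB vehicle and at 1682, 1472 and 1654 with 4-OHT. Vector cells had 1537, 1499 and 1494 in vehicle and 1535, 1477 and 1703 in 4-OHT. The TFEB vehicle group was the one that stood apart, below all 9 other libraries. The rise with 4-OHT was 1.34-fold (log2 0.42 ± 0.10 SE, adjusted p = 0.0014) and passed in all 24 alternatives. The 2 partners of Wdr12 had log2 changes of -0.11 (Pes1) and 0.13 (Bop1), which did not pass.

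Gnl3, the GTP-binding protein nucleostemin, showed a like order of groups: 3576, 3492 and 4184 in vector vehicle, 3603, 3639 and 3992 in vector 4-OHT, 3258, 2719 and 3081 in TFEB vehicle and 3785, 3968 and 3431 in TFEB 4-OHT. The TFEB vehicle libraries were again the 3 lowest. The log2 change with 4-OHT was 0.31 ± 0.09 (SE, adjusted p = 0.0101), and it was lost without TFEB vehicle library 2 (0.0725) or TFEB 4-OHT library 2 (0.0636). It was also lost with array weights (0.0624) or without a variance trend (0.0687).

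Ppan, the Peter Pan homolog needed for the large subunit (chr9:20888175-20892179, plus strand), was at 2784, 2345 and 2856 in TFEB vehicle and at 2099, 2096 and 2285 with 4-OHT. Vector cells had 2938, 2661 and 2972 in vehicle and 3067, 3292 and 3349 in 4-OHT. TFEB cells in 4-OHT were below all other libraries and vector cells in 4-OHT above all others. Ppan fell by 0.30 on the log2 scale in TFEB cells (SE 0.09, adjusted p = 0.0115). Ppan lost this call without TFEB vehicle library 1 (0.0535) or 3 (0.0593), or without a variance trend (0.0515). Noc2l, which accompanies the particle out of the nucleolus, went from 3794, 3116 and 4135 to 3172, 2880 and 2861, so its groups overlapped through TFEB vehicle library 2; vector cells had 3980, 4275 and 4351 in vehicle and 4380, 3608 and 4432 in 4-OHT. Noc2l fell by 0.30 on the log2 scale in TFEB cells (SE 0.10, adjusted p = 0.018). That call was lost without TFEB vehicle library 1 (0.0659) or 3 (0.128) or TFEB 4-OHT library 2 (0.0632) or 3 (0.075), and without a variance trend (0.119). The 8 remaining members of the role lay between -0.13 for Rrs1 and 0.19 for Nop16. 8 members hold 23 small nucleolar RNA genes on their own strand (GENCODE vM21), Ppan 2 and Gnl3 3 of them, and the sources used here do not say whether their reads were counted apart from the host's.

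Npm1, nucleophosmin, the chaperone that is a main component of the granular nucleolus (chr11:33152498-33164142, minus strand), was the protein-coding member with the highest level per length. It had 40500 normalized counts per kb of its shortest CCDS transcript over the 12 libraries, before 8180 for Ncl and 5120 for Nop56, an order that rests on the transcript taken for each gene. In counts it was at 47170, 58820 and 54300 in TFEB vehicle and at 36160, 34980 and 34880 with 4-OHT. Vector cells had 46210, 48960 and 54260 in vehicle and 49770, 50140 and 46480 in 4-OHT. The TFEB 4-OHT libraries lay below all 9 others. Npm1 fell 1.51-fold, the largest fall of a member (log2 -0.59 ± 0.10 SE, adjusted p = 1.72e-05), and passed in all 24 alternatives. Processed copies of Npm1 are common in the genome, and the sources used here do not say how shared reads were assigned. The other abundant factors did not pass: nucleolin (Ncl) had a log2 change of -0.14, the RNA helicase Ddx21 0.08 and Mybbp1a -0.17.

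Npm1 and Ncl made up a large part of the summed level of the 43 protein-coding members. As a share of reads other than Rn45s it was 1.64 ± 0.11% in vector vehicle, 1.74 ± 0.066% in vector 4-OHT, 1.58 ± 0.13% in TFEB vehicle and 1.48 ± 0.014% in TFEB 4-OHT (SD, n = 3). Npm1 and Ncl together were 0.737, 0.788, 0.78 and 0.634% in that order of groups, and the other 41 were 0.9, 0.956, 0.803 and 0.85%. With 4-OHT in TFEB cells the share of Npm1 and Ncl was thus lower by the means and the share of the rest higher. These sums carry no test, since the members were chosen with results known.

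**Figure D3:**
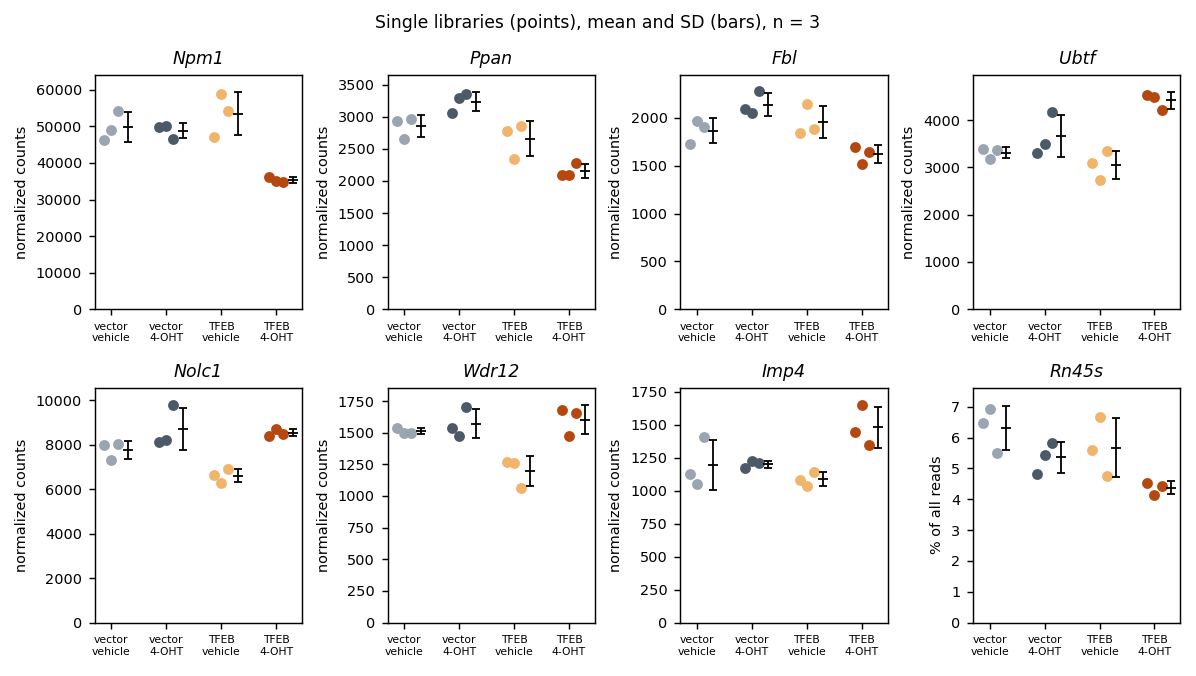
Values of 7 members in normalized counts, and of Rn45s in percent of all reads, in the 4 groups (x axis; points are libraries, bars are mean and SD, n = 3, y axes start at 0). In TFEB cells in 4-OHT, Npm1 lies at 34880 to 36160 and Ppan at 2096 to 2285, below every other library, and Ubtf lies at 4214 to 4538, above every other library.

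In vector cells 4-OHT called none of the 44 members in limma, edgeR or DESeq2, beside 0.0153% of all tested genes (2 genes, both lower). 3 members were under an unadjusted p of 0.05 in limma: Nob1 (log2 change -0.28), Fbl (0.19) and Utp20 (0.22). They are 6.82% of the members, beside 6.27% of all tested genes under the same p. All 44 intervals lay within 2-fold, and the log2 changes ran from -0.28 to 0.22. 7 members had groups apart (5 higher, 2 lower; 15.9%), beside 10.8% of all tested genes (5.43% higher, 5.34% lower). Whether the ligand acted differently in the lines was tested directly, as the difference of the 4-OHT effects. 4 members passed (9.09%, beside 15.8% of all tested genes, 7.75% higher and 8.01% lower, and 25.9% of those at least as abundant as the lowest protein-coding member): Npm1 (log2 difference -0.56 ± 0.14 SE, adjusted p = 0.00382), Ppan (-0.48 ± 0.13, 0.00711), Fbl (-0.47 ± 0.13, 0.0125) and Ubtf (0.40 ± 0.13, 0.0298). Npm1 passed in all 23 alternatives of this comparison. Ppan and Fbl passed in all but the fit without a variance trend (0.054 and 0.0535). Ubtf was less firm: it was lost without a variance trend (0.139), in edgeR (0.0588), with upper-quartile scaling (0.0611), with no filter on low values (0.0518), and without vector vehicle library 1 (0.064) or 3 (0.0623), vector 4-OHT library 1 (0.11) or 2 (0.0717), TFEB vehicle library 2 (0.0881) or TFEB 4-OHT library 1 (0.0728) or 2 (0.063). Of the 9 other members called in TFEB cells, the difference did not pass, with adjusted p from 0.0654 for Imp4 and 0.0766 for Wdr12 to 0.781 for Nob1.

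The lines also differed before any ligand was given. In vehicle, 39 of 44 members had a lower mean in TFEB than in vector cells. The median log2 difference was -0.15 over the members and 0.05 over all tested genes. It was -0.006 over the 9871 genes that passed a minimum of 50. 4 members were called, all lower (9.09%, beside 5.38% of all tested genes, 2.49% lower and 2.89% higher, and 7.59% of those at least as abundant as the lowest protein-coding member). 17 had groups apart, all lower (38.6%, beside 21.6% of all tested genes in either direction, 9.66% lower and 12% higher). The share with groups apart was not taken over the more abundant genes alone. Imp3, a partner of Imp4 at the U3 RNA, was at 1058, 1089 and 998 in vector vehicle and at 708, 715 and 900 in TFEB vehicle, a difference of -0.44 ± 0.12 (log2, SE; adjusted p = 0.0191). With 4-OHT it was at 1003, 974 and 957 in vector cells and at 745, 884 and 866 in TFEB cells, so TFEB cells were the lower line in both conditions. Wdr74, a large subunit factor, was at 695, 855 and 872 against 505, 613 and 646 in vehicle (-0.46 ± 0.13, adjusted p = 0.0383), and at 723, 903 and 825 against 690, 591 and 635 in 4-OHT. The others were Wdr12 (-0.34 ± 0.10, 0.0392) and Gnl3 (-0.31 ± 0.09, 0.0358). The values of both with 4-OHT in TFEB cells, given above, use the same TFEB vehicle libraries as this comparison.

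These 4 calls did not hold in every alternative. None passed when only the 2 groups were fitted or without the variance trend, and leaving out any 1 of the 6 vehicle libraries left 1 or 2 of the 4. Imp3 was lost without vector vehicle library 1 (adjusted p = 0.0667) or 2 (0.0944) or TFEB vehicle library 1 (0.0815) or 2 (0.0812), and Wdr74 without vector vehicle library 2 (0.166) or 3 (0.186) or TFEB vehicle library 1 (0.171) or 2 (0.0565). Wdr12 was lost without vector vehicle library 1 (0.122), 2 (0.106) or 3 (0.101), TFEB vehicle library 3 (0.167) or TFEB 4-OHT library 3 (0.054). Gnl3 was lost without vector vehicle library 1 (0.0522) or 3 (0.252) or TFEB vehicle library 2 (0.179) or 3 (0.0562). With no filter on low values Wdr12 (0.0616) and Gnl3 (0.0615) were lost, Wdr12 also in edgeR (0.0601) and Gnl3 also with array weights (0.0841). The number of members with a lower mean was steadier, at 39 or 40 of 44 under upper-quartile scaling, TMM scaling without Rn45s, edgeR and DESeq2.

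In 4-OHT, 11 members were lower in TFEB than in vector cells and 2 were higher (29.5%, beside 27.1% of all tested genes, 13.5% lower and 13.6% higher). Of the tested genes at least as abundant as the lowest protein-coding member, 41% were called. The lower members came from each of the 5 protein-coding roles. They were Polr1e, a polymerase I subunit (-0.69 ± 0.19, adjusted p = 0.0049), Tcof1 (-0.30), Fbl (-0.40), and the small subunit factors Tsr1 (-0.28) and Wdr43 (-0.27). The rest were the large subunit factors Ppan (-0.58 ± 0.09, 4.71e-06), Noc2l (-0.47), Nop2 (-0.35) and Pes1 (-0.35), and Npm1 (-0.46) and Mybbp1a (-0.39). Ubtf (0.28 ± 0.09, 0.0209) and Imp4 (0.30 ± 0.11, 0.0448) were higher. This comparison uses the same TFEB 4-OHT libraries as that of 4-OHT with vehicle in TFEB cells. Both higher calls were lost in edgeR, which called 0 higher and 15 lower members. Upper-quartile scaling and TMM scaling without Rn45s each called 1 higher and 17 lower. Calls over all tested genes also shifted toward lower in these fits. They were 1517 higher and 1836 lower in edgeR, 1649 and 1946 with upper-quartile scaling and 1643 and 1939 with TMM scaling without Rn45s. The main limma fit had 1785 and 1768. Polr1e, at 226, 258 and 336 in TFEB cells against 508, 352 and 465 in vector cells, is the least abundant of the 11. Without vector 4-OHT library 3, Wdr43 (adjusted p = 0.0698) and Tsr1 (0.132) were lost, Tsr1 also without TFEB 4-OHT library 2 (0.0818). Without a variance trend Wdr43 (0.0522), Ubtf (0.0984) and Imp4 (0.114) were lost. Ubtf was lost without vector 4-OHT library 1 (0.147) or 2 (0.0761) or TFEB 4-OHT library 1 (0.0779) or 2 (0.0646), and Imp4 without vector vehicle library 1 (0.0512) or any library in 4-OHT except TFEB library 3 (0.0715 to 0.227). 24 members had groups apart with TFEB cells lower and 3 with TFEB cells higher (61.4%, beside 39.1% of all tested genes, 18.9% lower and 20.2% higher). This share too was not taken over the more abundant genes alone.

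The vehicle and the 4-OHT comparison of the lines share no library, although they share the lines themselves, both made from 1 lymphoma. 34 of 44 members (77.3%) had a lower mean in TFEB cells in both, against 24.1% of all tested genes and 58.5% of the 147 other genes of the pathway. 9 members had groups apart with TFEB cells lower in both: Polr1c, Nop56, Imp3, Utp20, Tsr1, Nop2, Pes1, Wdr74 and Mybbp1a (20.5%, against 3.74% of all tested genes and 8.84% of the other pathway genes). Their differences in vehicle lay between -0.12 for Utp20 and -0.46 for Wdr74. The shares of all tested genes here include genes of low counts, and none was taken over the more abundant genes alone. Line and transgene cannot be told apart in this comparison.

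**Figure D4:**
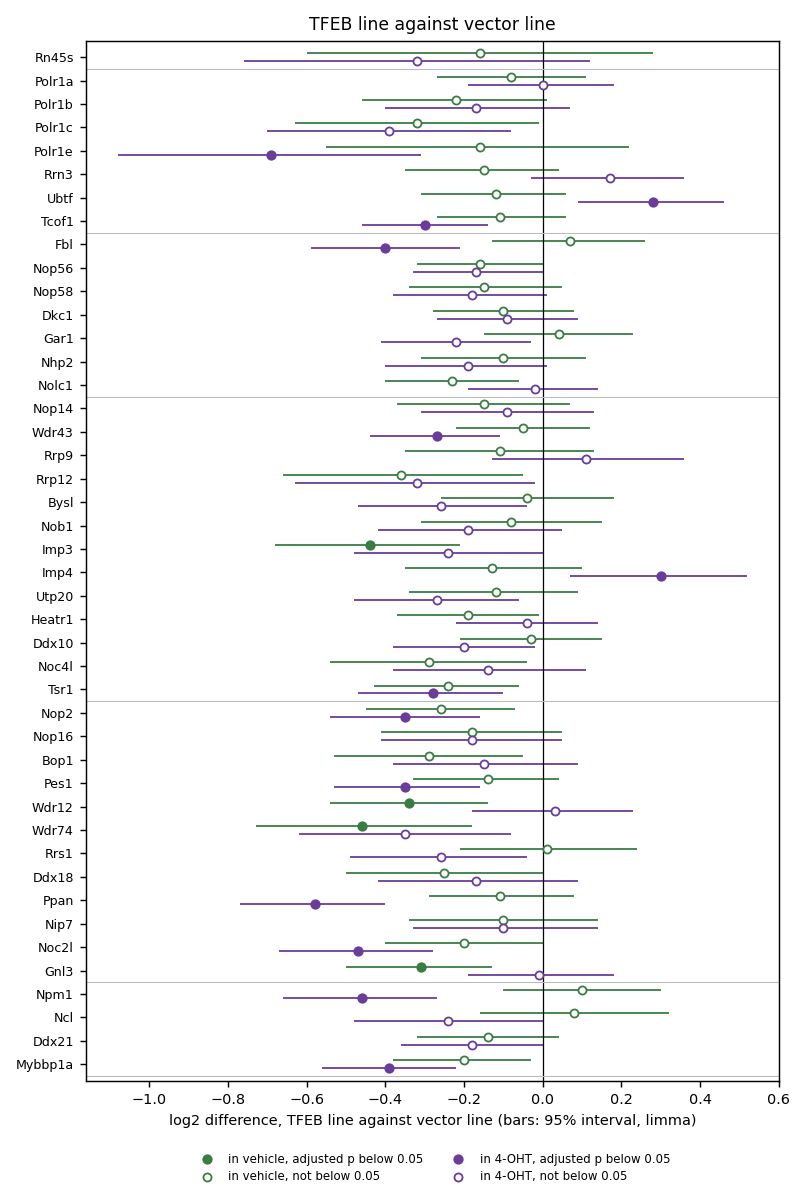
Log2 difference of TFEB from vector cells (x axis, limma) for each member in vehicle (green) and in 4-OHT (purple), with 95% intervals as bars; filled points passed an adjusted p of 0.05. In each condition 39 of 44 points lie below 0, with Ubtf and Imp4 as the filled points above it in 4-OHT.

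The rest of the pathway also moved in both directions with 4-OHT in TFEB cells and lay mostly lower in TFEB than in vector cells. A list of 147 other genes, all of them tested, held further polymerase I, small nucleolar particle, small subunit, large subunit and exosome genes, and was chosen by function with earlier results known. With 4-OHT in TFEB cells 19 rose and 12 fell (21.1%, beside 27.5% of all tested genes), with a median log2 change of 0.01. Genes listed as large subunit had 10 rises and 2 falls of 54 (22.2%). Those listed as small nucleolar particle genes had 0 rises and 4 falls of 11 (36.4%), Gltscr2 among the falls. Of all tested genes 13.7% were higher and 13.9% lower. These counts rest on the class given to each gene in the list. Some of those classes, that of Gltscr2 among them, are open to question, so no contrast between classes is drawn. In vector cells none of the 147 passed in limma, edgeR or DESeq2. 13 of them (8.84%) were under an unadjusted p of 0.05, beside 6.27% of all tested genes. Between the lines 1 was higher and 7 lower in vehicle, and 6 higher and 35 lower in 4-OHT, with medians of -0.09 and -0.17. With directions pooled, these calls are 5.44% of the list in vehicle, beside 5.38% of all tested genes, and 27.9% in 4-OHT, beside 27.1%. The pooled shares are near the background, but the directions are not. Of all tested genes 2.49% were lower and 2.89% higher in vehicle, and 13.5% lower and 13.6% higher in 4-OHT.

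The largest rises among these were Pelp1 (log2 0.59 ± 0.14 SE, adjusted p = 0.0012), a subunit of a complex that matures the large particle, Fam207a (0.58 ± 0.14, 0.00163), Ccdc86 (0.49 ± 0.14, 0.00791) and Nol6, a processome component (0.45 ± 0.13, 0.00734). Pelp1 went from 914 ± 167 in TFEB vehicle to 1363 ± 54.9 with 4-OHT, with 1156 ± 118 and 1176 ± 298 in vector cells (SD, n = 3). The largest falls were Gltscr2, now named Nop53 (-0.65 ± 0.09, 7.38e-07), Esf1, an 18S processing factor (-0.64 ± 0.08, 4.69e-07), and 2 factors that assemble box C/D particles, Nufip1 (-0.55 ± 0.18, 0.0217) and Znhit6 (-0.52 ± 0.12, 0.0012). Esf1 went from 4448 ± 165 to 2861 ± 121, with 4942 ± 575 and 4759 ± 246 in vector cells. The difference of the 4-OHT effects passed for Esf1 (-0.59, adjusted p = 0.000552), Znhit6 (-0.81, 0.000754), Gltscr2 (-0.46, 0.00951), Fam207a (0.66, 0.0185) and Pelp1 (0.59, 0.034), and not for Nufip1 (0.0655), Nol6 (0.149) or Ccdc86 (0.78). These 8 were picked by the size of their change in TFEB cells. Over the whole list the difference passed for 9 of 147 (2 higher, 7 lower; 6.12%), beside 15.8% of all tested genes.

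**Figure D5:**
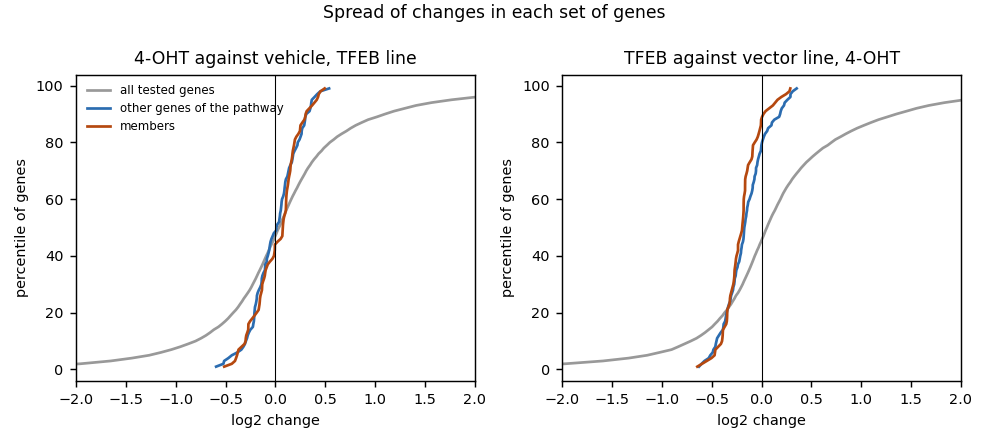
Percentile curves of the log2 change (x axis) over all tested genes (grey), the 147 other genes of the pathway (blue) and the 44 members (orange), for 4-OHT against vehicle in TFEB cells (left) and TFEB against vector cells in 4-OHT (right). The members' curve is steeper than the grey one in both panels, around a median of 0.07 on the left and -0.20 on the right.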

How the data were processed

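The authors deposited normalized read counts per gene, a signal that is never negative: each library's counts divided by 1 size factor. Nonzero values were, for 100% of them in each library, integer multiples (within 0.001) of the value of 1 read, so whole reads were recovered. STAR 2.5.3, HTSeq 0.6.1, DESeq2 1.6.3 and mm10 are named in the submitters' processing notes; annotation and strand use: not given in the sources used here. Values were taken to log2 after adding 1, so folds of low genes are understated. limma 3.58.1 (R 4.3.3, variance trend, 8 residual degrees of freedom) took the 12 libraries together, 1 mean for each group, over 13111 genes with at least 10 in at least 3 libraries. edgeR 4.0.16 (quasi-likelihood) and DESeq2 1.42.0 on the recovered reads, other scalings, filters and a pseudocount of 10, and leaving out libraries were alternatives. The limma and edgeR fits were tested on simulated data: sizes of change were recovered, but fewer of the large changes were called than first required, and the criterion was changed after that run. Floors and counting errors cover counting error only. Members and lists were chosen with earlier results of these data known. Every member may be named; values of every library are given for members called with 4-OHT in TFEB cells, in the difference of the 4-OHT effects or between the lines in vehicle, and for Rn45s. Of the other pathway genes, the 4 largest called rises and falls with groups apart are named. 1 listed B cell marker is not reported here and was left out of that list's sums.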

Additional observations from a re-analysis of the deposited data

Results flagged for a closer look

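The effect of 4-OHT differed between TFEB and vector cells for 4 of the 44 members, by a test of the difference itself (limma, adjusted over all 13111 tested genes). They are 9.09% of the members, beside 15.8% of all tested genes and 25.9% of those at least as abundant as the lowest protein-coding member. On the log2 scale the change in TFEB cells minus that in vector cells was -0.56 for Npm1, -0.48 for Ppan, -0.47 for Fbl and 0.40 for Ubtf. For Fbl and Ppan the 2 lines moved in opposite directions by their means, with changes of -0.27 and -0.30 in TFEB cells and of 0.19 and 0.18 in vector cells, where neither passed the adjusted threshold. For Npm1 the change in vector cells was -0.03, and for Ubtf it was 0.14. The difference for Ubtf passed in only 12 of 23 alternative fits.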

How the results depend on the processing

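Of 34 calls of a member in a comparison, 15 were kept in every alternative run, 19 were lost in at least 1, and none reversed. Without a variance trend the members called were 7 with 4-OHT in TFEB cells, 1 in the difference of the effects and 0 between the lines in vehicle. The other pathway genes called were 15, 3 and 1, and 23 between the lines in 4-OHT. Calls over all tested genes fell in that fit too. With 4-OHT in TFEB cells 1494 were higher and 1480 lower, against 1792 and 1819 in the main fit. The difference of the effects had 707 and 681, against 1016 and 1050. Between the lines in vehicle there were 140 and 119, against 379 and 326. Between the lines in vehicle DESeq2 called 7 members, no filter on low values 2 and the 2 groups alone 0. Over all tested genes these fits called 682 higher and 532 lower, 301 and 271, and 204 and 148 in that order. The fit without both vector 4-OHT library 2 and TFEB vehicle library 3 called 2 members. The 2 groups alone called 2 other pathway genes. DESeq2 called 19 other pathway genes in the difference of the effects. Leaving out 1 library gave 7 to 14 members with 4-OHT in TFEB cells (7 without TFEB 4-OHT library 2), 3 to 5 in the difference, 1 to 4 between the lines in vehicle and 10 to 15 in 4-OHT; for the other pathway genes it gave 22 to 34, 6 to 10, 1 to 10 and 25 to 46 (25 and 26 without TFEB 4-OHT library 2 or 3). The Rn45s difference ranged from -1.75 to -0.804 points in TFEB cells and from -1.36 to -0.645 in vector cells. The causes of these shifts were not tested. With a replicate block limma called 13, 0, 4, 4 and 16 members in the 5 comparisons. Replicate numbers gave no pairing among the 7794 more abundant genes used for this check. There 1 of 18 same-number pairs had a correlation of residuals over 0.1 (-0.115 to 0.165), and 4 of 12 libraries matched best with their own number. Genes detected were 19057 in vector 4-OHT library 2 and 19250 in TFEB 4-OHT library 2, and 11390 to 16563 in the other libraries. Whether those libraries shared a batch was not tested.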
